A study of Homo sapiens with 16 samples.

Results

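The 8 Polysome libraries of this series of 16 divide into sets A and B of 4 that cross the treatment. Set A held Ctrl 1, Ctrl 2, siRNAG5 1 and siRNAG5 4, and set B held Ctrl 3, Ctrl 4, siRNAG5 2 and siRNAG5 3, so that each set had 2 libraries of each treatment. The sets were selected on the Polysome counts themselves, from how the libraries fell apart in an earlier analysis of these data. Differences between set A and set B in Polysome are therefore given as a description, without a test. All libraries came from HEK293, an established cell line of human embryonic kidney origin. In siRNAG5 cells GEMIN5 had been silenced with a small interfering RNA delivered with Lipofectamine. Ctrl is untreated according to the labels but had a control siRNA according to the methods, which was not settled here. Cells of both treatments received cycloheximide, which holds ribosomes on mRNA, and the cytoplasmic lysate was either kept as Input or run on a sucrose gradient whose heavy fractions were pooled as Polysome. No label gives a date, batch or gradient run for any library, so what separates the sets beyond their counts is not known here.

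A sucrose gradient sorts mRNAs by the number of ribosomes they carry. An mRNA with a long open reading frame has room for many ribosomes, and one with a very short open reading frame carries few even when it is well translated. Ribosomal proteins, histones and small subunits of the respiratory chain are textbook examples of short, efficiently translated mRNAs. Mitochondrial transcripts are translated inside mitochondria by mitochondrial ribosomes and are not part of cytosolic polysomes.

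Reads counted on genes numbered 11145324 to 16884295 per Polysome library and 13347866 to 24511299 per Input library, and set A (11145324 to 16884295) overlapped set B (11226410 to 16365110). GEMIN5, the silenced gene, stood at 7.06, 9.03, 9.62 and 11.3 CPM (reads of a gene scaled to the TMM-normalised library size) in Polysome Ctrl 1 to 4 and at 2.70, 3.98, 3.94 and 2.98 CPM in Polysome siRNAG5 1 to 4, and fell by 1.44 ± 0.21 on the log2 scale (SE, edgeR adjusted p = 0.00477). All 5 HEK293 markers were present in every library. The summed level of 26 liver genes was 148 to 243 CPM in the Ctrl libraries of set A and 114 to 177 CPM in those of set B, with all 26 genes above 0, and 3.99 to 8.13 CPM in the siRNAG5 libraries, where 7 or 8 were above 0. In Input the same sum was 2.80 to 4.95 CPM in Ctrl 1 and 2, 119 to 135 CPM in Ctrl 3 and 4, and 4.21 to 6.82 CPM in siRNAG5. Liver transcripts thus accompanied the treatment in Polysome and overlapped between the sets, whereas in Input they followed the numbers of the Ctrl libraries. In such bulk libraries fewer cells of a type, less RNA per cell and RNA from another sample cannot be told apart. The source of the liver transcripts in these libraries of a cell line was not tested. The summed level of 14 blood genes in Polysome was 12.2 to 12.8 CPM in Ctrl and 5.65 to 7.66 CPM in siRNAG5, and that of 12 brain genes was 23.5 to 25.5 and 19.5 to 22.8 CPM. The share of gene reads on the 100 most abundant genes was higher in set A than in set B within each treatment, at 30.5 and 31.7% against 26.5 and 29.0% in Ctrl and at 28.4 and 28.4% against 22.6 and 22.5% in siRNAG5. Reads without a unique position, which enter no gene count, were 22.1 to 42.4% of a library in set A and 21.2 to 32.8% in set B. The part of these library measures in the set differences was not tested.

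**Figure D1:**
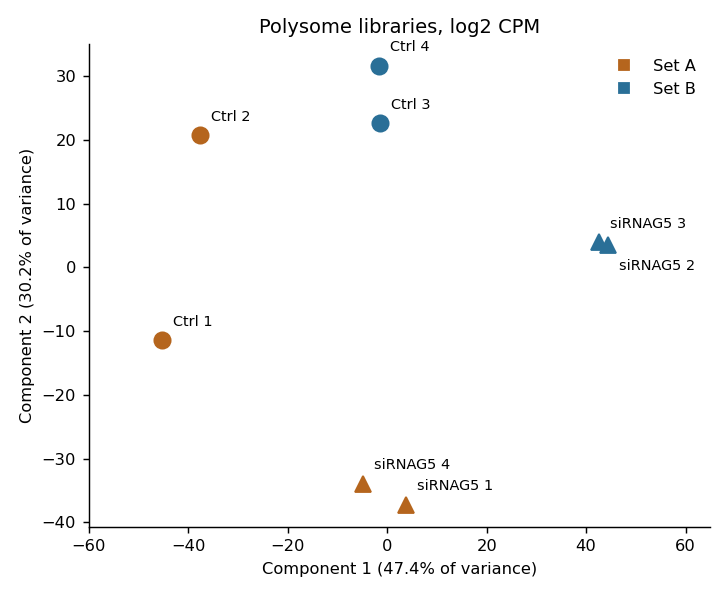
Principal components of log2 CPM of 14420 genes in the 8 Polysome libraries, with component 1 (47.4% of variance) on the x axis, component 2 (30.2%) on the y axis, set A in brown, set B in blue, circles for Ctrl and triangles for siRNAG5. Within each treatment the set B libraries lie to the right of the set A libraries, and Ctrl 2 lies close to Ctrl 3 on component 2.

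How far the libraries of the sets lay apart was examined first, since they define the comparison. On the first principal component, Ctrl scored -45.3 and -37.7 in set A and -1.39 and -1.54 in set B, and siRNAG5 scored 3.83 and -4.81 in set A and 44.4 and 42.5 in set B. The step from set A to set B on that component was thus about as wide as the step from Ctrl to siRNAG5. With each treatment centred on its own mean, the leading component took up 61.2% of the variance. The library nearest to the other set on it was Ctrl 2, at -9.91 against -35.5 to -27.1 for the rest of set A and scores of up to 30.1 for set B. The biological coefficient of variation estimated by edgeR was 0.216 with treatment alone and 0.122 with set as a further term. Selection of the sets on these counts lowers the second value, by an amount that was not tested. In Input, with each library given the set of the Polysome library of the same treatment and number, the coefficient was 0.0806 and 0.0864.

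The question put to the 2 sets was which classes of mRNA varied between polysome preparations independently of the silencing. Long open reading frames were higher in set B and short ones in set A, in both treatments. Of 14420 genes tested, 1337 were counted as higher in set B (9.27%) and 878 as higher in set A (6.09%), where a gene was counted when the fitted log2 difference was beyond 0.5 and all 4 libraries of one set lay beyond the 4 of the other. When the libraries had to be apart within Ctrl and within siRNAG5 but not across treatments, the counts were 1977 (13.7%) and 1597 (11.1%). The median difference over all genes tested was 0.01. Without Ctrl 2 the first rule counted 2102 toward set B and 1319 toward set A, and with RLE size factors 1128 and 1021. The sets were selected on these counts, so these shares describe the selection.

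Coding length, taken without the stop codon from the canonical transcript of the annotation, ordered the median differences of 5 groups of genes. From the shortest to the longest of 5 equal groups of 12250 protein-coding genes, the median log2 difference of set B minus set A was -0.38 (75 to 759 nt), -0.10 (762 to 1179 nt), 0.13 (1182 to 1653 nt), 0.31 (1656 to 2529 nt) and 0.45 (2532 to 26775 nt). The order was the same within Ctrl alone, from -0.31 to 0.43, and within siRNAG5 alone, from -0.38 to 0.47. In the shortest group 2069 of 2453 genes were higher in set A, and in the longest group 2155 of 2442 were higher in set B. Of the 248 genes with a coding length under 300 nt, 240 were higher in set A with a median of -0.59, and of the 327 genes over 6000 nt, 286 were higher in set B with a median of 0.40. The median for the 327 longest was thus no higher than that of the longest group as a whole, and no further rise was seen at the long end.

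The gradient was also described in each of the 8 libraries. In each library, the deviation of a gene from the mean of its treatment was taken, and the median of the longest group was set against that of the shortest. That contrast was -0.41 in Ctrl 1, -0.28 in Ctrl 2, -0.31 in siRNAG5 1 and -0.49 in siRNAG5 4, the libraries of set A. It was 0.35 in Ctrl 3, 0.35 in Ctrl 4, 0.40 in siRNAG5 2 and 0.39 in siRNAG5 3, the libraries of set B. All of set A were below 0 and all of set B above it, and Ctrl 2 again came closest to the other set. Deviations of a gene sum to 0 within a treatment and the sets were selected on these counts. The opposite signs are therefore no independent support. Relative to the Input library of the same treatment and number, the median Polysome level went down from the shortest to the longest group by 0.34 in Ctrl 1, 0.19 in Ctrl 2, 0.25 in siRNAG5 1 and 0.46 in siRNAG5 4 on the log2 scale. It went up by 0.47 in Ctrl 3, 0.25 in Ctrl 4, 0.50 in siRNAG5 2 and 0.55 in siRNAG5 3. Polysome RNA of set A was thus relatively rich in short open reading frames and that of set B in long ones, against the lysate they are numbered with. These contrasts use the same Polysome counts, so they are no independent support either, and the match by number is uncertain.

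**Figure D2:**
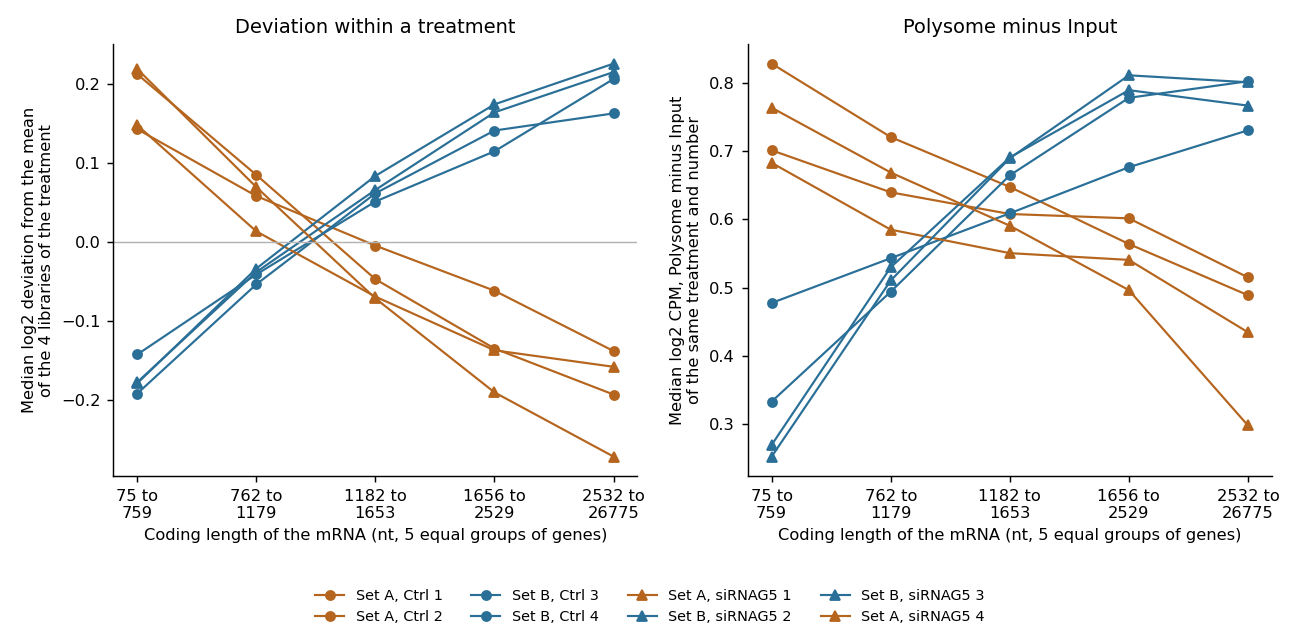
Lines show the 8 Polysome libraries (set A brown, set B blue; circles Ctrl, triangles siRNAG5) over 5 groups of coding length in nt. The left panel plots the median log2 deviation from the mean of the treatment, where all 4 set A libraries go down and all 4 set B libraries go up with length, and the right panel the median log2 CPM of Polysome minus Input, with the same crossing.

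Other transcript features followed the set difference less closely. Across the 12250 genes, which share libraries and are not independent, Spearman's rho with the set difference was 0.62 for coding length, 0.52 for transcript length, 0.29 for the 3′ UTR, 0.24 for the 5′ UTR and -0.12 for GC content. The gradient was present at each length of the 3′ UTR. Genes were divided by 3′ UTR length into 3 groups of equal size. In the group with the shortest 3′ UTR the median went from -0.53 in the shortest to 0.38 in the longest coding group, and in the group with the longest 3′ UTR from -0.17 to 0.47. Within gene families the relation to coding length was also positive, with a rho of 0.78 over 35 proteasome subunits, 0.67 over 80 nuclear-encoded respiratory chain subunits, 0.60 over 76 mitochondrial ribosomal proteins, 0.57 over 84 cytosolic ribosomal proteins and 0.24 over 404 ZNF genes. With an offset for coding length in the fit, chosen after seeing the data, 410 genes were counted as higher in set B and 718 as higher in set A. Genes without a coding sequence received no such offset. The median of lncRNA genes stayed at -0.41 and that of processed pseudogenes at -0.79. The 2 counts thus mix adjusted and unadjusted genes, and what was left among protein-coding genes alone was not counted.

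Ribosomal protein mRNAs were higher in set A. Of 88 listed genes 84 were tested, 83 of them had a higher fitted level in set A, and the median difference was -0.70 (-0.52 within Ctrl, -0.84 within siRNAG5). It was -0.33 with the coding length offset and -0.22 with the offset for transcript length and GC content. All 4 set A libraries lay above the mean of their treatment, by medians of 0.19 to 0.46, and all 4 set B libraries below it, by 0.15 to 0.42. Within each treatment 73 of 84 were apart beyond 0.5 (11.1% of all genes), but only 8 of 84 did not overlap across all 8 libraries (6.09% of all genes), since their level also differed between Ctrl and siRNAG5. The member furthest toward set A was RPS29, a component of the small subunit with an open reading frame of 168 nt (chromosome 14, 49570984 to 49599164, minus strand). Its level was 1223, 1432, 770 and 760 CPM in Ctrl 1, Ctrl 2, siRNAG5 1 and siRNAG5 4, and 716, 828, 294 and 297 CPM in Ctrl 3, Ctrl 4, siRNAG5 2 and siRNAG5 3. The set A libraries were higher within each treatment, while the siRNAG5 libraries of set A overlapped the Ctrl libraries of set B. RPL8, the most abundant member (771 nt), differed by -0.46, and RPL7L1, a ribosomal protein paralogue, was the one member higher in set B, by 0.14.

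Ribosomal protein mRNAs begin with a 5′ terminal oligopyrimidine (TOP) tract, a run of C and T letters directly at the cap through which growth signals control translation. TOP mRNAs outside the ribosomal proteins were listed apart. The first 30 bases of 4 TOP transcripts, as annotated on GRCh38, are shown with the leading pyrimidine run in capitals, because they share this start and differ in their set difference. RPS29 lies at chr14:49586351-49586380 (minus strand), TPT1 at chr13:45341154-45341183 (minus strand), EEF1A1 at chr6:73521003-73521032 (minus strand) and NPM1 at chr5:171387849-171387878 (plus strand), each in exon 1.
RPS29: CTTCCTTTTacctcgttgcactgctgagag
TPT1: CTTTTCCgcccgctcccccctccccccgag
EEF1A1: CTTTTTCgcaacgggtttgccgccagaaca
NPM1: CTTTCCCTggtgtgattccgtcctgcgcgg

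These 4 mRNAs ran in different directions between the sets. TPT1, a small translationally controlled protein (516 nt), was higher in set A in all comparisons, at 1997, 2147, 1952 and 1697 CPM in set A and 1371, 1510, 917 and 966 CPM in set B, a difference of -0.74. EEF1A1, the elongation factor that brings tRNA to the ribosome (1386 nt), differed by -0.25, by 0.02 within Ctrl and by -0.47 within siRNAG5. NPM1, a nucleolar chaperone (882 nt), stood at 1496 CPM in Ctrl 1 and 4407 CPM in Ctrl 2, against 4261 and 4349 CPM in Ctrl 3 and Ctrl 4, so that its difference of 0.47 rested in Ctrl on the library Ctrl 1. Over the 19 of 20 other TOP mRNAs tested, 12 were higher in set A and 7 in set B, with a median of -0.17 (0.02 within Ctrl, -0.34 within siRNAG5) that was -0.31 without Ctrl 1 and -0.068 without siRNAG5 1. An annotated start of C followed by at least 4 C or T letters was found, on the transcript strand, in 61 of 84 ribosomal protein mRNAs, in 17 of 19 other TOP mRNAs and in 5.53% of all 12250 protein-coding genes tested. Outside both lists, the median difference of mRNAs with such a start was -0.42 in the shortest and 0.38 in the longest coding group, beside -0.35 and 0.45 for those without it. The annotated start may differ from the one used in these cells.

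Mitochondrially encoded RNAs had the median furthest toward set A among the lists examined. All 13 mRNAs were higher in set A, with a median of -1.24, and 9 of 13 were apart beyond 0.5 within each treatment (11.1% of all genes). MT-ND1, a subunit of complex I (chromosome M, 3307 to 4262), stood at 313, 286, 454 and 405 CPM in set A and at 157, 138, 92.4 and 169 CPM in set B, without overlap, a difference of -1.37. MT-CO1, the catalytic subunit of complex IV and the most abundant member, stood at 5183, 3529, 8980 and 9368 CPM in set A and at 2367, 1716, 2439 and 4627 CPM in set B, a difference of -1.24 with overlap across the treatments only. Both mitochondrial ribosomal RNAs, MT-RNR1 and MT-RNR2, also had a higher fitted level in set A, by 1.28 and 1.08 on the log2 scale. Within siRNAG5 this rested mostly on a high siRNAG5 1 (959 and 1224 CPM) and a low siRNAG5 3 (128 and 196 CPM). The remaining set A library, siRNAG5 4 (314 and 395 CPM), lay only slightly above siRNAG5 2 of set B (302 and 375 CPM). For MT-RNR2, Ctrl 2 (651 CPM) likewise lay close to Ctrl 4 (619 CPM), while MT-RNR1 was further apart within Ctrl. The median of the 13 mRNAs was -0.91 within Ctrl and -1.59 within siRNAG5. It was -1.08 with the coding length offset and -0.74 with the offset for transcript length and GC content. MTATP6P1, a nuclear copy of MT-ATP6 on chromosome 1, differed by -1.43 beside -1.30 for MT-ATP6 and is uncertain, because reads of near-identical copies cannot always be told apart.

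Nuclear genes of mitochondrial proteins were mostly higher in set A. The 80 of 87 respiratory chain genes tested had a median difference of -0.57, with 73 higher in set A and 47 apart within each treatment (11.1% of all genes). ATP5ME, a small subunit of ATP synthase (207 nt), stood at 1096, 1098, 633 and 625 CPM in set A and at 619, 667, 269 and 307 CPM in set B. SDHA, the flavoprotein subunit of complex II (1992 nt), ran the other way, at 48.9, 81.1, 68.2 and 54.8 CPM in set A and at 112, 112, 129 and 116 CPM in set B, a difference of 0.89. Subunits of one chain thus lay on opposite sides. Mitochondrial ribosomal proteins (76 of 78 tested, median -0.38, 63 higher in set A) and the import machinery (28 of 30 tested, median -0.39, 23 higher in set A) also held members on both sides. TIMM8B, a small chaperone of the intermembrane space (249 nt), differed by -0.98 and TOMM70, an import receptor (1824 nt), by 0.66. MRPL53 (336 nt, mean 0.683 CPM) was the mitochondrial ribosomal protein furthest toward set B, at 0.82, and MRPL37 (1269 nt), the most abundant one, differed by -0.47. With the coding length offset the medians of these 3 lists were -0.12, -0.09 and -0.12.

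**Figure D3:**
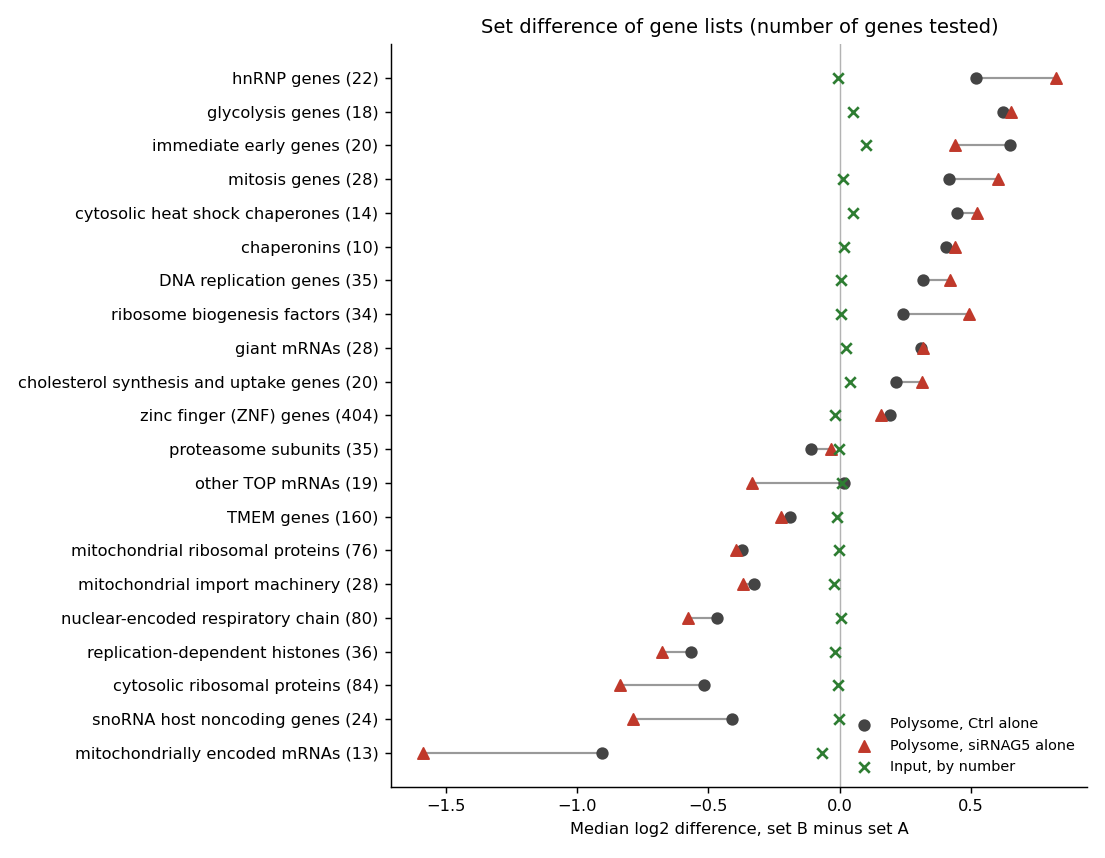
Median log2 difference of set B minus set A for 21 gene lists, with the number of genes tested in brackets, in Polysome Ctrl (circles), Polysome siRNAG5 (triangles) and Input by number (crosses). In Polysome, all lists but other TOP mRNAs have both treatments on the same side of 0, and the Input medians lie between -0.07 and 0.10.

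Histone and noncoding RNAs were also higher in set A. Of 64 replication-dependent histone genes, whose mRNAs end in a stem-loop instead of a poly(A) tail, 36 were tested, 35 were higher in set A and the median was -0.64, with 11 apart within each treatment (11.1% of all genes). In siRNAG5 the histone medians of the sets overlapped (set A 0.49 and -0.00099, set B 0.032 and -0.48, as log2 levels relative to the treatment mean), and the list's median was -0.21 with the coding length offset and -0.027 with the offset for transcript length and GC content. H2BC12, the most abundant of them, differed by -0.41. The libraries were made from poly(A) RNA, so counts of these histone genes, here and under silencing, may cover only a part of their mRNA. H2AZ2, a replacement histone with a polyadenylated mRNA (384 nt), stood at 448, 450, 379 and 376 CPM in set A and at 309, 329, 243 and 241 CPM in set B, without overlap. Of 31 noncoding host genes of small nucleolar RNAs, 24 were tested and all 24 were higher in set A, with a median of -0.72. SNHG29, the most abundant host, stood at 419, 408, 339 and 306 CPM in set A and at 255, 246, 130 and 174 CPM in set B. Over the 1148 lncRNA genes tested the median was -0.41, with 278 apart toward set A within each treatment (11.1% of all genes) and 7 toward set B (13.7% of all genes). Processed pseudogenes, intronless copies of mRNAs, had a median of -0.79 over 640 genes (-0.34 within Ctrl, -1.11 within siRNAG5). Relative to the mean of Ctrl, their medians were 0.16, 0.16, 0.11 and -0.39 in Ctrl 1 to 4, so within Ctrl the difference rested mostly on Ctrl 4. In siRNAG5 both set A libraries (0.62 and 0.27) lay above both of set B (-0.39 and -0.50). Among the 10 genes furthest toward set A at 5 CPM or more were RPL41P2, RPS27P3 and RPL23P8, copies of ribosomal protein genes whose counts are uncertain for that reason. TMEM genes, a naming family of membrane proteins (160 of 237 tested), had a median of -0.19 and included TMEM258 (237 nt), a subunit of the glycosylation complex, with a difference of -1.03.

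The 10 genes furthest toward set B, at a mean of 5 CPM or more and without overlap, were HOOK1, GOPC, RHPN2, CALCOCO1, HMGCS1, GJA1, SUN2, G3BP2, SCRIB and PELP1, with differences of 1.14 to 1.49. Their open reading frames ranged from 1146 nt in GJA1, a gap junction protein, to 4965 nt in SCRIB, a polarity scaffold, so they were not the longest mRNAs. HOOK1, an adaptor of the dynein motor, stood at 4.49, 7.31, 6.93 and 5.44 CPM in set A and at 14.3, 15.9, 16.6 and 21.3 CPM in set B. HMGCS1, an enzyme of cholesterol synthesis, stood at 17.0, 22.4, 17.1 and 17.5 CPM in set A and at 41.5, 35.6, 50.6 and 38.4 CPM in set B. G3BP2, a stress granule protein, stood at 17.0, 28.5, 27.6 and 26.5 CPM in set A and at 58.3, 44.1, 58.0 and 63.1 CPM in set B. In all 3 genes the lowest set B library was above the highest set A library. With the coding length offset the differences were 1.16 in HOOK1, 0.98 in HMGCS1 and 1.01 in G3BP2, so most of each was left.

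**Figure D4:**
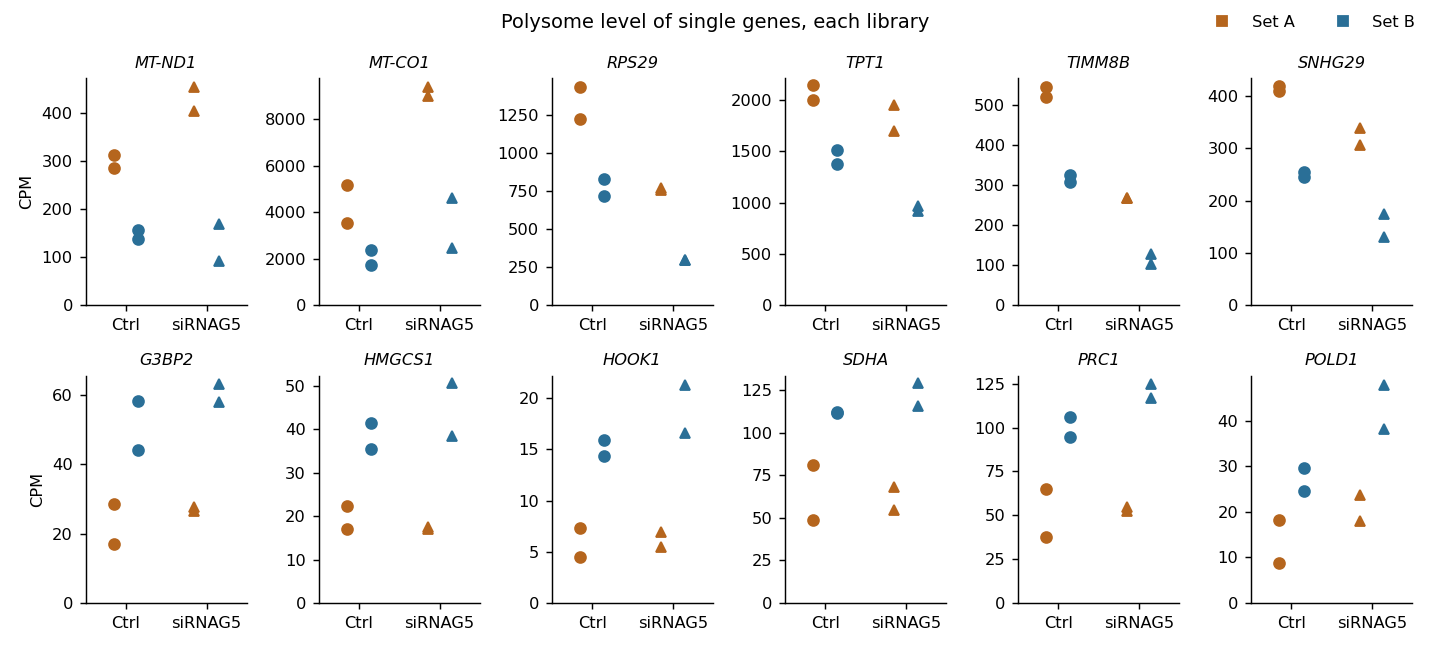
CPM of 12 genes in the 8 Polysome libraries, Ctrl as circles and siRNAG5 as triangles, set A in brown and set B in blue, each panel with its own axis from 0. The upper row holds genes higher in set A (MT-ND1 to SNHG29) and the lower row genes higher in set B (G3BP2 to POLD1), and within each treatment the colours do not mix.

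Nuclear RNA-binding proteins of the hnRNP family, which package and splice pre-mRNA, were higher in set B. All 22 of 26 tested had a higher fitted level there, with a median of 0.70 and 11 apart within each treatment (13.7% of all genes). HNRNPA2B1 (1023 nt) had the largest difference, 1.18, and stood at 650, 2873, 627 and 653 CPM in Ctrl 1, Ctrl 2, siRNAG5 1 and siRNAG5 4 and at 2919, 3176, 1812 and 1964 CPM in set B. Ctrl 2 was close to the Ctrl libraries of set B and far above Ctrl 1. The hnRNP median was -0.75 in Ctrl 1 and 0.17 in Ctrl 2 relative to the mean of Ctrl, beside 0.24 and 0.34 in Ctrl 3 and Ctrl 4, so within Ctrl the difference of this list rested on Ctrl 1. Without Ctrl 1 the list's median was 0.55, and in siRNAG5 both set A libraries (-0.43 and -0.39) lay below both of set B (0.37 and 0.41). Chaperonins, the folding chambers of cytosol and mitochondria, had a median of 0.37 over 10 genes, which was 0.24 without Ctrl 1 and 0.54 without Ctrl 2. Relative to the mean of Ctrl, their medians were -0.58, 0.23, 0.15 and 0.25 in Ctrl 1 to 4. For ribosome biogenesis factors the median of 0.31 over 34 genes was 0.24 without Ctrl 1 and 0.51 without Ctrl 2. Their Ctrl medians were -0.42, 0.18, 0.095 and 0.18. Within Ctrl both lists thus rested on Ctrl 1, with Ctrl 2 lying among the set B libraries. In siRNAG5 both set A libraries lay below both of set B in each of these lists.

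Named members of the chaperonin, ribosome biogenesis and heat shock lists lay on both sides of 0. HSPD1, the large subunit of the mitochondrial chaperonin (1719 nt), stood at 368, 580, 478 and 382 CPM in set A and at 659, 691, 678 and 619 CPM in set B. HSPE1, its partner with an open reading frame of 306 nt, stood at 232, 268, 130 and 152 CPM in set A and at 149, 162, 106 and 107 CPM in set B. The pair differed by 0.55 and -0.55. The genes overlap on opposite strands of chromosome 2 in the annotation, so reads in the overlap may have been left out or shared. NOLC1 (2097 nt), a nucleolar chaperone, differed by 1.05 and NHP2 (459 nt), a core protein of H/ACA snoRNPs, by -0.66. STIP1, a co-chaperone that links HSP70 and HSP90 (1629 nt), differed by 0.88 and HSPB1, a small heat shock protein (615 nt), by -0.54, in a list of 14 cytosolic heat shock chaperones with a median of 0.46. Relative to the mean of Ctrl, medians of that list were -0.58, 0.14, 0.13 and 0.28 in Ctrl 1 to 4. Within Ctrl its difference thus rested on Ctrl 1.

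Cell cycle and metabolic genes were mostly higher in set B. Of 28 mitosis genes 25 were higher there, with a median of 0.49 and 12 apart within each treatment, and of 35 DNA replication genes 28, with a median of 0.36 and 11 apart (13.7% of all genes). Relative to the mean of Ctrl, mitosis medians were -0.33, 0.075, 0.11 and 0.22 in Ctrl 1 to 4. DNA replication medians were -0.39, 0.084, 0.12 and 0.20, so within Ctrl both lists rested mostly on Ctrl 1. In siRNAG5 both set A libraries lay below both of set B in each list. PRC1, which bundles microtubules of the spindle midzone (1860 nt), stood at 37.7, 64.8, 54.8 and 52.5 CPM in set A and at 106, 94.5, 125 and 117 CPM in set B. POLD1, the catalytic subunit of DNA polymerase delta (3321 nt), stood at 8.87, 18.2, 23.7 and 17.9 CPM in set A and at 29.7, 24.7, 47.9 and 38.2 CPM in set B. All set B libraries were above all set A libraries in both genes. Of 18 glycolysis genes 16 were higher in set B, with a median of 0.62. Relative to the mean of Ctrl, glycolysis medians were -0.44, 0.0027, 0.23 and 0.34 in Ctrl 1 to 4. Those of cholesterol genes were -0.20, 0.023, 0.080 and 0.11. ENO2, a neuronal enolase, differed by 1.08 at a mean of 7.87 CPM, while GAPDH, the most abundant, differed by 0.11. Of 20 immediate early genes 18 were higher in set B, with a median of 0.60 that the coding length offset left at 0.68. Cholesterol genes (20 tested) had a median of 0.28 and ZNF genes (404 tested) one of 0.15. The same offset left mitosis genes at 0.18, DNA replication genes at 0.24, glycolysis genes at 0.38 and cholesterol genes at 0.16, and turned ZNF genes to -0.057. Giant mRNAs, 28 of the longest open reading frames, had a median of 0.31, from -0.41 in HERC2, a ubiquitin ligase, to 1.08 in KMT2D, a histone methyltransferase of 16611 nt, and with the coding length offset a median of -0.09. HUWE1, a ubiquitin ligase and the most abundant of them, stood at 29.7, 27.9, 26.4 and 26.1 CPM in set A and 28.3, 42.7, 32.5 and 32.3 CPM in set B, with overlap.

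Input counts were not used to form the sets, and served to ask whether the lysate RNA of the same numbers was divided in the same way. Deviations of same-numbered Polysome and Input libraries from their treatment means correlated at -0.06 to 0.26 in Ctrl and at -0.25 to 0.23 in siRNAG5. The set given to an Input library by its number is therefore uncertain. Among 14134 genes tested, 1 was called higher in the Input libraries numbered as set B (0.00708%) and 0 lower by edgeR's quasi-likelihood test, at an adjusted p under 0.05 and a log2 difference beyond 0.5, with 243 genes (1.72%) at an unadjusted p under 0.05, and DESeq2 called 1 and 0. Median differences of coding length groups ranged in Input from -0.04 to 0.04 in Ctrl and from 0.05 to -0.05 in siRNAG5 between the shortest and the longest. The contrast of the longest with the shortest group averaged 0.00112 in Input libraries numbered as set A and 0.000745 in those numbered as set B (two-sided exact permutation of the set within treatment, p = 1 over 36 arrangements, smallest possible p = 0.0556). The design could thus not reach 0.05, and Input contrasts ran from -0.07 to 0.11, where Polysome contrasts ran from -0.49 to 0.40. Ribosomal protein mRNAs had an Input median of -0.01 and mitochondrially encoded mRNAs one of -0.07.

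The gene called in Input was CPS1, the first enzyme of the urea cycle and a liver gene. It stood at 2.78, 4.05, 3.65 and 3.86 CPM in Input Ctrl 1, Ctrl 2, siRNAG5 1 and siRNAG5 4, and at 10.3, 10.5, 4.79 and 5.63 CPM in Input Ctrl 3, Ctrl 4, siRNAG5 2 and siRNAG5 3, a difference of 1.01 ± 0.17 (SE, edgeR adjusted p = 0.0244). The difference was 1.59 within Ctrl and 0.48 within siRNAG5, and Ctrl 3 and Ctrl 4 were the Input libraries with liver transcripts among the Ctrl. Without any 1 of the 4 Input Ctrl libraries, 0 genes were called by number. In the interaction of set and treatment, 6 of 14134 genes were called in Input (0.0425%), with 705 at an unadjusted p under 0.05, and DESeq2 called 5. C3, a complement protein made in liver, had an interaction of -5.65 ± 0.58 (SE, edgeR adjusted p = 2.01e-07), with 8.72 and 8.91 CPM in Input Ctrl 3 and Ctrl 4 and 0.15 to 1.16 CPM in the other 6 Input libraries. The others were FN1, fibronectin (-2.04), PCK1, an enzyme of gluconeogenesis (-4.49), MALAT1, a nuclear lncRNA (-3.18), RN7SL2, an RNA of the signal recognition particle (-1.74), and BCYRN1, a small noncoding RNA (1.89). The part of liver transcripts in these calls was not tested. Without the Input library siRNAG5 4, 38 genes had a positive and 48 a negative interaction by the same test.

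The comparison of siRNAG5 with Ctrl in Polysome spans both sets, which hold the same number of libraries of each treatment. Without set in the model, edgeR called 577 genes lower (4%) and 569 higher (3.95%) in siRNAG5. The lower calls included 19 of the 20 liver genes tested, which had a median log2 FC of -7.69. The low-count filter is grouped by treatment, so genes near 0 in siRNAG5 can enter through their Ctrl level alone. Such genes could hardly be called otherwise. ALB, for one, stood at 0 to 0.11 CPM in siRNAG5, so the size of these fold changes rests on counts near 0. The part of liver transcripts in the other calls was not tested. With set as a term edgeR called 1487 lower (10.3%) and 1571 higher (10.9%), among them all 577 and 568 of the 569. The sets were selected on these counts, which lowers the remaining spread, so the larger numbers are no independent evidence. Without Ctrl 2, the set A library nearest to set B, the fit without set called 113 lower and 76 higher. The 2 libraries of each treatment in set A alone gave 806 lower and 500 higher, and those in set B alone 1451 and 1226.

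In several classes that differed between the sets, the number of silencing calls changed with the set term. The sets were selected on these counts, so calls made with the term are no independent evidence about these classes. For ribosomal proteins, 9 of 84 were called lower without the term (4% of all genes) and 75 of 84 with it (10.3% of all genes), at a median log2 FC of -0.80. RPS29 had a log2 FC of -0.99 ± 0.36 (SE, edgeR adjusted p = 0.102) without the term and -1.09 with it. For the respiratory chain 5 and 41 of 80 were called lower, for mitochondrial ribosomal proteins 20 and 39 of 76, and for replication-dependent histones 9 and 24 of 36. For mitochondrially encoded mRNAs 1 and 10 of 13 were called higher, beside 3.95 and 10.9% of all genes. The median log2 FC of mitochondrially encoded mRNAs was 1.08 in set A and 0.41 in set B, that of ribosomal proteins -0.66 and -0.94, and that of processed pseudogenes 0.17 and -0.65, whereas replication-dependent histones stood at -0.80 and -0.79 and mitochondrial ribosomal proteins at -0.51 and -0.53. A difference between the sets in the silencing change was not tested. Silencing medians by coding length, from -0.20 in the shortest to 0.22 in the longest group over all 8 libraries, ran from -0.17 to 0.19 in set A and from -0.24 to 0.25 in set B.

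**Figure D5:**
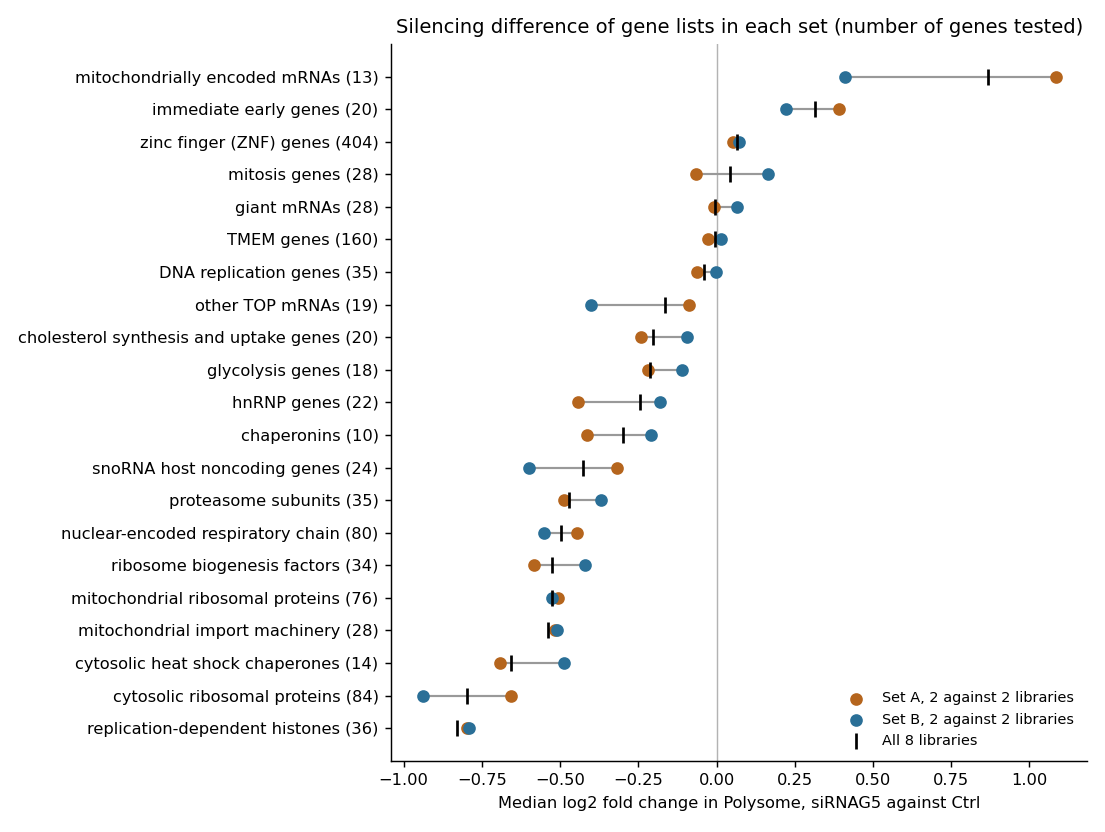
Median log2 FC of siRNAG5 against Ctrl in Polysome for 21 gene lists, with the number of genes tested in brackets, in set A (brown), set B (blue) and all 8 libraries (black bars). Replication-dependent histones coincide in both sets near -0.80, while mitochondrially encoded mRNAs are at 1.08 in set A and 0.41 in set B.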

How the data were processed

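Strand-specific poly(A) libraries of Input and Polysome RNA from HEK293 cells, 4 each of Ctrl and siRNAG5, were aligned by the authors to GRCh38 with STAR 2.5.3a and counted per gene with QoRTs, and the counts were deposited without normalization, 1 column per library. Reads with several positions, with no gene or with more than 1 gene were listed apart and left out here. Replicate numbers came from the labels, and each Input library was given the set of the Polysome library of the same treatment and number, although no label says that they are one lysate. No 2 libraries of a group agreed within sampling noise.

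The fit of each fraction's counts used edgeR 4.0.16 under R 4.3.3 (quasi-likelihood test, TMM, filterByExpr, Benjamini-Hochberg adjustment over all genes tested), with treatment and set as terms for the set difference and treatment alone for the silencing difference. Genes were called at an adjusted p under 0.05 and a log2 difference beyond 0.5. CPM were computed with TMM, and medians per library used log2(CPM + 0.5). Symbols, coding length and coordinates came from GENCODE v44 (GRCh38), which named 57532 of 58302 identifiers. Named genes were the 10 furthest in each direction without overlap and with a mean of at least 5 CPM, in each list the extreme members and the most abundant one, called Input genes and GEMIN5. The sets, the gene lists and these rules were chosen with earlier results of these data known. Alternatives were RLE factors, no filter, DESeq2 1.42.0, the replicate block, set as the only term, offsets for length and GC content, each treatment or set alone, and each library left out. Scripts were tested on simulated counts. Python 3.11.15, numpy 2.4.6, pandas 2.3.3, scipy 1.17.1 and matplotlib 3.10.9 were used. With 4 libraries per group, p-values cover the spread between these samples only.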

Additional observations from a re-analysis of the deposited data

Results flagged for a closer look

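In 160 groups of 4 libraries examined, 9 (5.62%) had a library far from the other 3. The cut-off flags about 1 in 20 groups of 4 independent, normally distributed values. The groups here share libraries and genes, and the Polysome sets were selected on their counts, so that rate need not hold. Of these 9, 6 were Polysome Ctrl 1 within Ctrl. The median deviation of hnRNP genes in Ctrl 1 was -0.75 (others 0.17 to 0.34), that of chaperonins -0.58 (others 0.15 to 0.25) and that of ribosome biogenesis factors -0.42 (others 0.09 to 0.18). NPM1 stood at 1496 CPM in Ctrl 1 (others 4261 to 4407), HNRNPA2B1 at 650 CPM (others 2873 to 3176) and STIP1 at 149 CPM (others 357 to 396). HUWE1 stood at 42.7 CPM in Ctrl 4 (others 27.9 to 29.7). In Polysome siRNAG5, library 1 had 42.4% of reads aligned to several places (others 26.3 to 29.0%) and a median deviation of proteasome subunits of -0.0101 (others 0.00308 to 0.00561), which is a small distance.

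The Input set difference differed between the treatments by the tested interaction in 6 genes, given as the difference in siRNAG5 minus that in Ctrl. It was 1.89 in BCYRN1, -5.65 in C3, -2.04 in FN1, -3.18 in MALAT1, -4.49 in PCK1 and -1.74 in RN7SL2.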

How the results depend on the processing

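The set difference was described from libraries that also defined the sets, so no setting adds support to it. Between 1128 and 1728 genes were counted as higher in set B and between 784 and 1021 in set A under RLE factors, DESeq2, no filter, the replicate block and set as the only term. With offsets for transcript length and GC content the counts were 541 and 566, so the share toward set B went from 60.4% to 48.9%. Offsets for coding length, added after seeing the data, did not act on genes without a coding sequence. With them the counts were 410 and 718, a share of 36.3% over adjusted and unadjusted genes together. Within Ctrl alone they were 2120 and 1084, within siRNAG5 alone 2645 and 2326, and without overlap inside each treatment, also added after seeing the data, 1977 and 1597. With 1 library left out they ranged from 1247 to 2102 and from 823 to 1319, the highest without Ctrl 2.

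In Input, genes called higher by number were 49 without a filter, 4 within Ctrl alone and 0 within siRNAG5 alone, with set as the only term or with the replicate block. Genes called lower were 1 without a filter and 1 within Ctrl alone. With 1 library left out, 0 to 6 were called higher and 0 lower. Without a filter 13 genes had a negative interaction, and with 1 library left out 1 to 38 genes were positive and 4 to 48 negative, the highest without Input siRNAG5 4. Silencing calls in Polysome were 1571 higher and 1487 lower with set as a term, 1226 and 1451 in set B alone, 840 and 1101 with DESeq2, 825 and 941 without a filter, and 76 to 687 and 113 to 836 with 1 library left out, the lowest without Ctrl 2. Without Ctrl 4 they were 260 and 321, without siRNAG5 1 264 and 254, without siRNAG5 2 267 and 245, and without siRNAG5 3 289 and 245. Paired by number as a replicate block, 444 were higher and 558 lower. Numbers did not pair Ctrl with siRNAG5 libraries, since the deviations of same-numbered ones correlated at -0.63 to 0.57 in Polysome and at -0.06 to 0.07 in Input. Polysome and Input libraries of the same number correlated at -0.06 to 0.26 in Ctrl and at -0.25 to 0.23 in siRNAG5. Those of different numbers correlated at -0.24 to 0.12 in Ctrl and at -0.30 to 0.31 in siRNAG5.

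Of 273 alternative values of 21 list medians, 240 moved by less than the spread between replicates. The sign changed with the coding length offset in giant mRNAs (-0.087), ZNF genes (-0.057) and proteasome subunits (0.042, from -0.049), in proteasome subunits also with offsets for transcript length and GC content (0.15) and without Ctrl 2 (0.036), and in other TOP mRNAs within Ctrl alone (0.018, from -0.17). The coding length offset moved ribosomal proteins to -0.33, the respiratory chain to -0.12, mitochondrial ribosomal proteins to -0.087, import machinery to -0.12, replication-dependent histones to -0.21, TMEM genes to -0.089, glycolysis to 0.38, mitosis to 0.18 and cholesterol genes to 0.16. Offsets for transcript length and GC content moved ribosomal proteins to -0.22, mitochondrially encoded mRNAs to -0.74, the respiratory chain to -0.085, mitochondrial ribosomal proteins to -0.069, import machinery to -0.16, replication-dependent histones to -0.027, snoRNA hosts to -0.40, proteasome subunits to 0.15, giant mRNAs to 0.024 and ZNF genes to 0.0098. RLE factors moved ZNF genes to 0.11. Within Ctrl alone, ribosomal proteins were at -0.52, other TOP mRNAs at 0.018, the respiratory chain at -0.47, snoRNA hosts at -0.41 and ZNF genes at 0.19, and within siRNAG5 alone ribosomal proteins were at -0.84. With 1 library left out, snoRNA hosts ranged from -0.77 to -0.61 and ZNF genes from 0.15 to 0.18. The cause of these shifts was not tested beyond the offsets themselves.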
